A study of Mus musculus with 12 samples.

Results

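The genes described here are 32 genes of the unfolded protein response and of the secretory chaperone machinery of the endoplasmic reticulum (ER), taken from a table of 45777 genes by their gene symbols. They comprise 10 chaperones and cochaperones, 6 disulfide isomerases and folding enzymes, 4 stress sensors and transcription factors, 7 genes of ER-associated degradation and 5 genes of the translocon. They were measured by RNA-seq in splenic CD4+ T cells of wild type mice, cultured over 3 days with anti-CD3 (0.5 ug/ml), an antibody that triggers the T-cell receptor. This stimulus was common to all 4 groups of 3 libraries, of which 1 had nothing else, 1 was given L. acidophilus (a lactic acid bacterium), 1 was given FK506 (tacrolimus, an inhibitor of the phosphatase calcineurin) and 1 was given both, here called the combination. The sample labels name Balb/c mice of 7 weeks, whereas the study's methods name B6 mice as the source of such cells, and neither gives doses of L. acidophilus or FK506 for these libraries. Nothing in the labels says that the 3 libraries of a group came from separate animals or cultures, so the p-values measure the spread between these libraries, which may be technical.

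Proteins that a cell secretes or places on its surface enter the ER through the Sec61 translocon and fold there with the help of chaperones and disulfide isomerases. When unfolded proteins accumulate, the sensors IRE1 alpha (gene Ern1), ATF6 and PERK (gene Eif2ak3) induce these genes, partly through the transcription factor XBP1, and ER-associated degradation removes proteins that fail to fold. The pathway is best known for its high activity in antibody-secreting plasma cells, and activated T cells, which secrete cytokines, also use it.

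Levels are given as FPKM, the deposited level scaled to transcript length and sequencing depth, in the order of the replicate numbers, or as mean ± SD. Changes are log2 fold changes with their standard error (SE) from edgeR's quasi-likelihood test on the counts of 23585 genes, and a gene is said to have risen or fallen where its Benjamini-Hochberg adjusted p over all these genes was under 0.05. All 32 members passed the filter for low counts, which kept genes with counts in 3 or more libraries. FPKM and the test scale the libraries differently, since the test applied TMM factors of 0.893 to 0.974 to the anti-CD3 libraries and of 1.05 to 1.10 to the combination libraries, so an FPKM difference can exceed the tested one for genes that rose and fall short of it for genes that fell. The total count per library was 45416397 to 64658165, and the lowest count of any member was 28 (Derl3).

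Several genes of this response are known to share a promoter sequence, the ER stress element, which reads CCAAT, then 9 bases, then CCACG. In the RefSeq promoter windows (GRCm38.p6, from 250 bases before to 50 bases after each annotated start, C57BL/6J reference), 26 of the 32 members had a window, and 9 of these 26 (34.6%) held the element on either strand, against 37 of 27025 genes (0.137%). The members were chosen as known genes of this response, so this share is a description and not a test. The 10 matches are shown because they mark the members whose changes are compared further on. Each is written 5′ to 3′ on the genomic strand that holds it, with the CCAAT and CCACG parts in capitals. All lie in GRCm38.p6, upstream of the start.
Hspa5, chr2:34772025-34772043, plus strand, 65 bases before the start: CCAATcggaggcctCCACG
Hsp90b1, chr10:86705533-86705551, plus strand, 107 bases before the start: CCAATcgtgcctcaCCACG
Hsp90b1, chr10:86705638-86705656, minus strand, 212 bases before the start: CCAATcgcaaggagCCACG
Calr, chr8:84847075-84847093, plus strand, 162 bases before the start: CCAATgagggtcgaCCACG
Canx, chr11:50325800-50325818, minus strand, 145 bases before the start: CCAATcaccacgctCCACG
Dnajc3, chr14:118937827-118937845, plus strand, 105 bases before the start: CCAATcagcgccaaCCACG
Pdia6, chr12:17266491-17266509, plus strand, 98 bases before the start: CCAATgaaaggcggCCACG
Creld2, chr15:88819520-88819538, minus strand, 126 bases before the start: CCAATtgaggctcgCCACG
Syvn1, chr19:6046532-6046550, plus strand, 44 bases before the start: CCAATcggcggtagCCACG
Derl3, chr10:75893242-75893260, minus strand, 156 bases before the start: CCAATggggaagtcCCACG

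The whole promoter windows of Hspa5, Hsp90b1, Syvn1 and Derl3 are printed because these genes share the element, and Syvn1 and Derl3 took other courses over the 4 groups than Hspa5 and Hsp90b1, which were alike. Each window is in GRCm38.p6, reads 5′ to 3′ on the strand of its gene, and has the whole match in capitals, which reads as the reverse complement (CGTGG, then 9 bases, then ATTGG) where the element lies on the other strand.
Hspa5, chr2:34771840-34772139, plus strand: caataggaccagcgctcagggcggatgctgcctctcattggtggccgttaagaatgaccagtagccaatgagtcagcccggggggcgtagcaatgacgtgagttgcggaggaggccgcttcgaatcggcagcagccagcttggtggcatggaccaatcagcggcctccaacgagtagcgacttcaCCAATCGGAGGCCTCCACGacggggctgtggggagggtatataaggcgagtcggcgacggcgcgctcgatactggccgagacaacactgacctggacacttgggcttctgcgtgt
Hsp90b1, chr10:86705395-86705694, minus strand: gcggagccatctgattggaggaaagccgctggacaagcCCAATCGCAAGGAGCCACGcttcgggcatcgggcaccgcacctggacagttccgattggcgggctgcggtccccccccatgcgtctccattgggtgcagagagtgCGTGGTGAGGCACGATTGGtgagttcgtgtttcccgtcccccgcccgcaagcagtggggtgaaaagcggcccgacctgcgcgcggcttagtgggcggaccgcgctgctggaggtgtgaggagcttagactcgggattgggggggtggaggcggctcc
Syvn1, chr19:6046326-6046625, plus strand: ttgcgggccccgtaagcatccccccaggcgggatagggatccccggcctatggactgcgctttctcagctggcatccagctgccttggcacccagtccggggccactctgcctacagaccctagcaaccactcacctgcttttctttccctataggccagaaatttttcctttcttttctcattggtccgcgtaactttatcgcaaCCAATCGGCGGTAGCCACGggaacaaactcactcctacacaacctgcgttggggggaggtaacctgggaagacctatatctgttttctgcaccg
Derl3, chr10:75893148-75893447, plus strand: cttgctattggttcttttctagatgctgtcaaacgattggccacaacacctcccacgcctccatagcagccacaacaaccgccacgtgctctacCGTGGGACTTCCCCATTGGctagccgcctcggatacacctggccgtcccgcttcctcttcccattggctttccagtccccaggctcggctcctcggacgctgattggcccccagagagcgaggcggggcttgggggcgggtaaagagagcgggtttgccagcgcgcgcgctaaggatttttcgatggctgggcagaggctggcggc

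A second form, ER stress element II (ATTGG, then any base, then CCACG), lay in the windows of Dnajb11 and Herpud1 (2 of 26, 7.69%, against 0.0444% of genes). The XBP1 and ATF6 element (TGACG followed directly by TGG) was in none of the 26 windows, against 0.714% of genes, and the amino acid response element (TGATG, then any base, then AA) was in that of Herpud1 (3.85%, against 4.51% of genes), with none of these forms overlapping another. A window without a match says only that these letters are not in those 300 bases.

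Over the 12 libraries the lumenal chaperones were the most abundant members. Calr, the calcium-binding lectin chaperone calreticulin, had the highest mean level (434 FPKM), followed by Hspa5, the Hsp70 chaperone BiP (275 FPKM), and Hsp90b1, the Hsp90 chaperone GRP94 (254 FPKM). The sensors Ern1 (4.54 FPKM), Eif2ak3 (8.24 FPKM) and Atf6 (9.31 FPKM) were among the 5 lowest members, and Derl3, a derlin of the degradation machinery, was the lowest (1.76 FPKM).

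**Figure D1:**
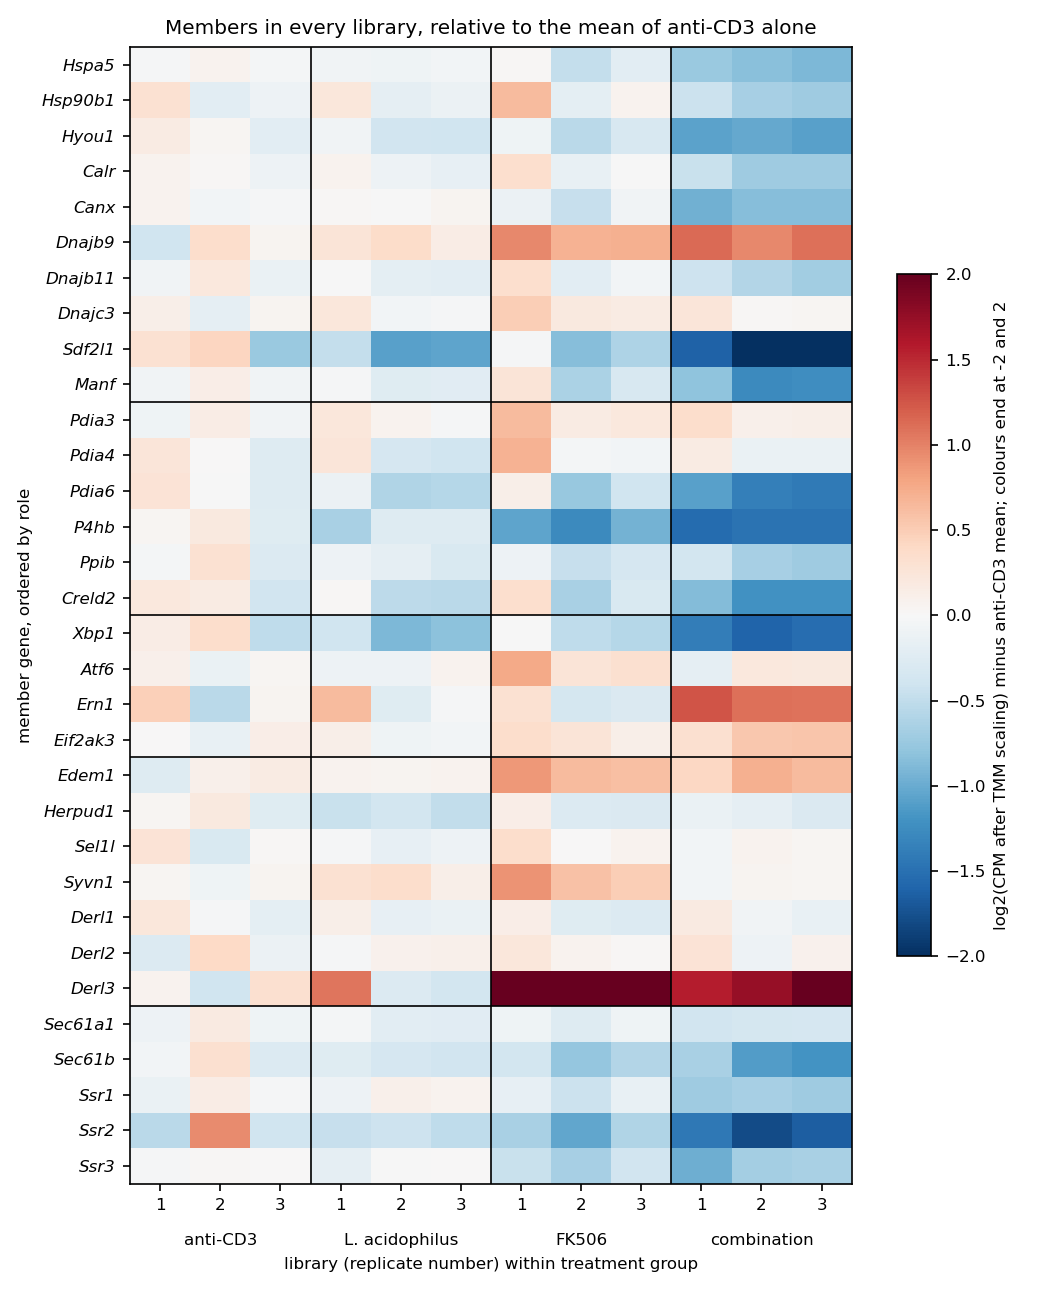
The 32 members (rows, in the order chaperones, folding enzymes, sensors, degradation, translocon, parted by lines) in the 12 libraries (columns), as log2 CPM (counts scaled to library size with TMM factors) minus the mean of the 3 anti-CD3 libraries. Most chaperone, folding enzyme and translocon rows are blue in the 3 combination libraries, whereas Dnajb9, Ern1, Edem1 and Derl3 are red there, and replicate 1 of FK506 is the highest FK506 library in 27 of the 32 rows.

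The first comparison asked what the combination changed against anti-CD3 alone. Of the 32 members, 18 fell and 5 rose, against 21.8% and 21.5% of all genes tested (43.3% in either direction), and 9 did not pass the test. The median log2 fold change of the members was -0.58, against 0.02 for all genes. At least 2-fold changes were found in 8 members that fell and 3 that rose, against 10.8% and 13.8% of all genes (24.6% in either direction). The falls lay in the chaperones (8 of 10), the folding enzymes (4 of 6) and the translocon (5 of 5), and among the sensors in Xbp1. The rises were Dnajb9, Ern1, Eif2ak3, Edem1 and Derl3. In FPKM, 17 members lay lower in every combination library than in every anti-CD3 library and 7 lay higher, against 18.8% and 31.2% of all genes. These are bulk RNA samples, in which fewer cells of a type and less RNA per cell cannot be told apart.

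**Figure D2:**
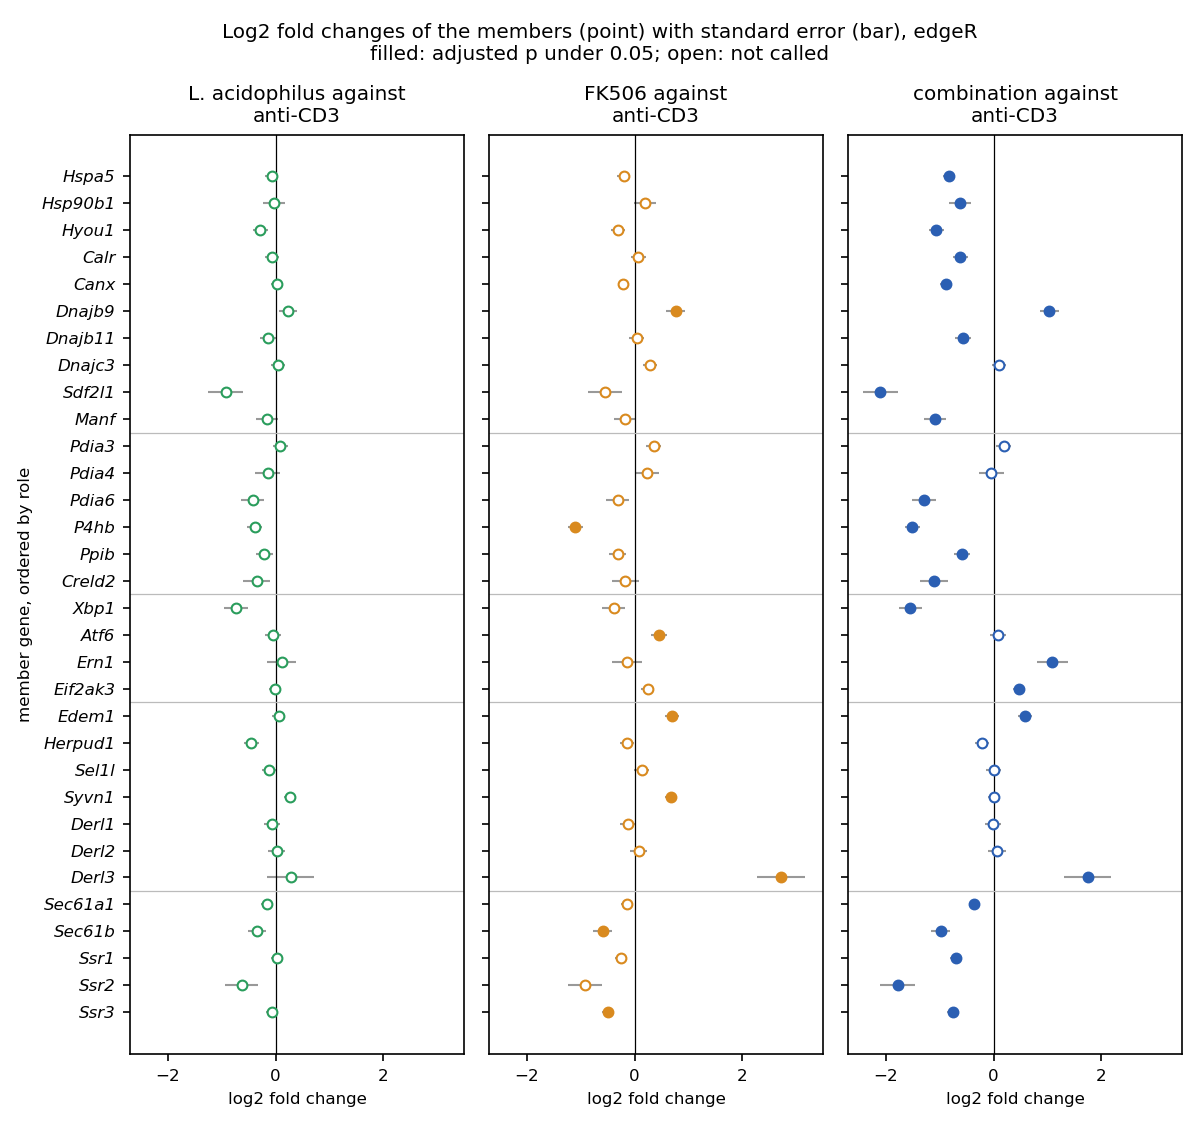
Log2 fold changes (points) with their SE (bars) of the 32 members against anti-CD3 alone, for L. acidophilus, FK506 and the combination. Filled points passed the test (adjusted p under 0.05). The 3 panels share the same anti-CD3 libraries. With L. acidophilus every point is open, with FK506 8 are filled, and with the combination 23 are filled, 18 of them left of 0.

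Among the chaperones, Hspa5 (chr2:34772090-34776529), the chaperone that also holds the sensors inactive, is a classic marker of the response. The FPKM of Hspa5 was 293, 311 and 313 in the anti-CD3 libraries, 306, 305 and 313 with L. acidophilus, 343, 242 and 279 with FK506 and 203, 198 and 194 with the combination. The 3 combination libraries lay below all 9 others, which overlapped. Hspa5 had a log2 fold change of -0.83 ± 0.12 (SE, n = 3 per group, adjusted p = 0.000197). Hsp90b1 had FPKM values of 303, 209 and 245 with anti-CD3 alone, 309, 233 and 243 with L. acidophilus, 426, 240.1 and 275 with FK506 and 206, 182 and 179 with the combination. The combination libraries were again below all others, but replicate 1 of the other groups stood high. Hsp90b1 had a log2 fold change of -0.62 ± 0.21 (SE, n = 3 per group, adjusted p = 0.0308). This fall lost its call when replicate 1 of anti-CD3, or replicate 2 or 3 of the combination, was left out (adjusted p = 0.119, 0.0870 and 0.0941).

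Sdf2l1 (chr16:17130138-17132383), an ER cochaperone of the BiP complex, had the largest fall of all members. Sdf2l1 stood at 86.5, 94.4 and 45.3 FPKM with anti-CD3 alone, at 54.8, 35.7 and 36.5 with L. acidophilus, at 77.5, 43.5 and 49.2 with FK506 and at 26.2, 16.9 and 17.8 with the combination. Replicate 3 of anti-CD3 was about as low as the L. acidophilus libraries, and the combination libraries were below all others. Sdf2l1 had a log2 fold change of -2.11 ± 0.33 (SE, n = 3 per group, adjusted p = 0.000342). Manf, a small ER protein that is also secreted under stress, had FPKM values of 140.4, 162 and 152 with anti-CD3 alone, 158, 135 and 137 with L. acidophilus, 199.7, 107 and 128 with FK506 and 96.9, 72.6 and 75.2 with the combination. Its combination libraries did not overlap those of any other group. Manf had a log2 fold change of -1.09 ± 0.20 (SE, n = 3 per group, adjusted p = 0.00107). Hyou1, a large Hsp70-like nucleotide exchange factor of BiP, had FPKM values of 67.2, 61.8 and 56.4 with anti-CD3 alone, 62.0, 49.9 and 49.6 with L. acidophilus, 64.4, 46.4 and 51.8 with FK506 and 32.8, 35.3 and 34.2 with the combination. Here too the combination was below every other library. Hyou1 had a log2 fold change of -1.07 ± 0.14 (SE, n = 3 per group, adjusted p = 0.000104).

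Calr fell (log2 fold change -0.62 ± 0.14, adjusted p = 0.00319), as did its membrane-bound relative Canx (calnexin, -0.89 ± 0.11, adjusted p = 7.18e-05) and Dnajb11, an Hsp40 cochaperone of BiP (-0.57 ± 0.15, adjusted p = 0.00881). Dnajb9, another Hsp40 of the ER that is a known XBP1 target, went the other way. The FPKM of Dnajb9 was 2.89, 4.82 and 4.24 in the anti-CD3 libraries, 4.93, 5.32 and 4.58 with L. acidophilus, 8.30, 6.95 and 6.71 with FK506 and 9.58, 8.79 and 9.86 with the combination. All FK506 and combination libraries were above all anti-CD3 and L. acidophilus libraries. Dnajb9 had a log2 fold change of 1.04 ± 0.18 (SE, n = 3 per group, adjusted p = 0.000566). Dnajc3, which inhibits PERK, was the only chaperone not called (log2 fold change 0.10 ± 0.12, adjusted p = 0.547).

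**Figure D3:**
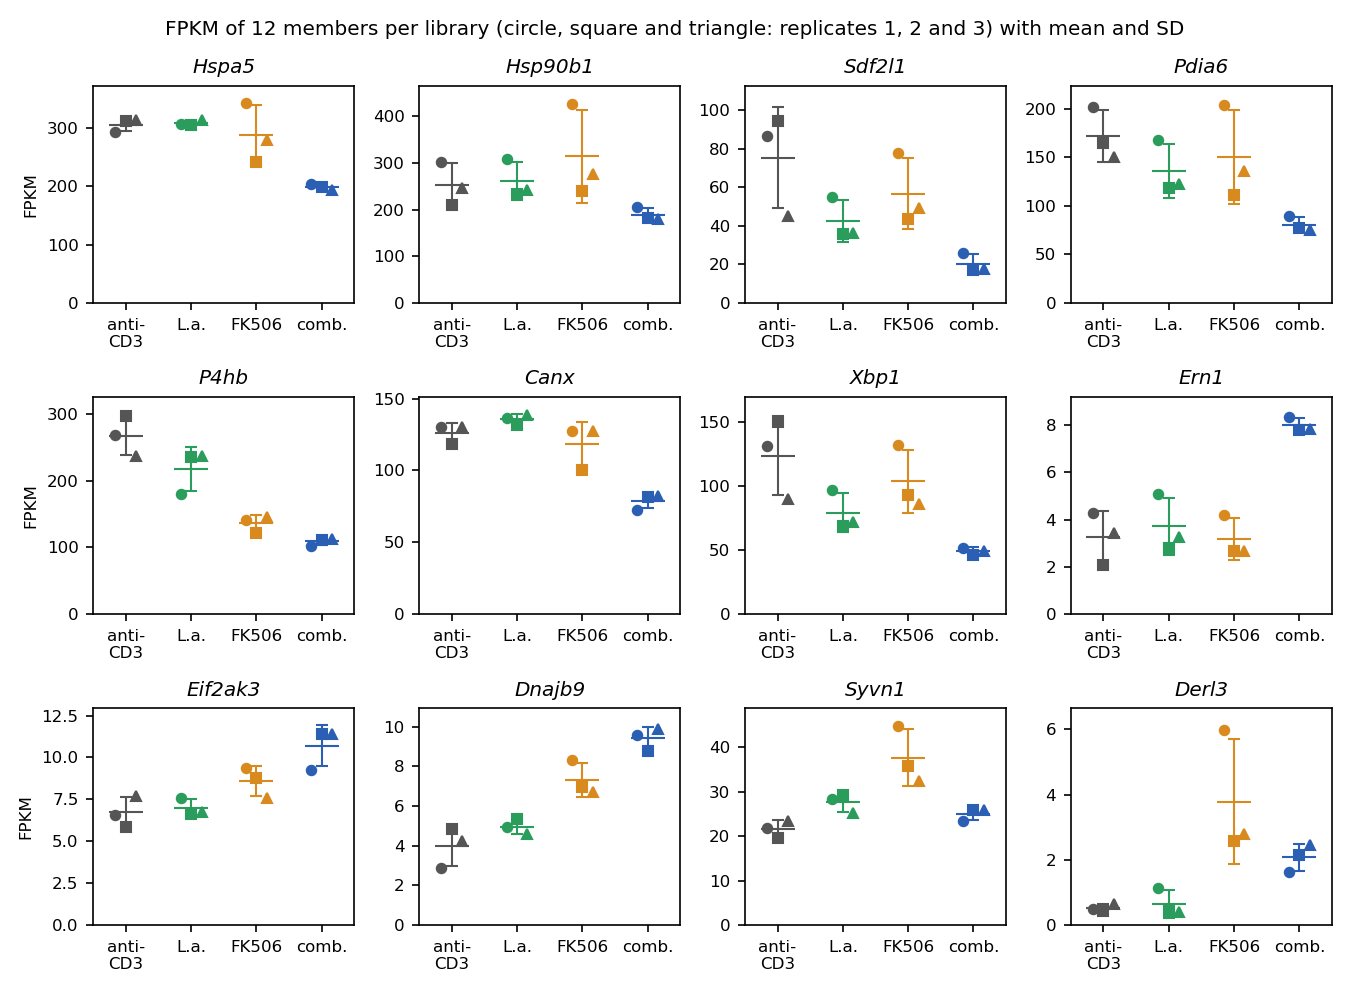
FPKM of 12 members in each library (circle, square and triangle for replicates 1, 2 and 3, with horizontal lines for the mean and bars for the SD, n = 3) with anti-CD3 alone, L. acidophilus (L.a.), FK506 and the combination (comb.), on axes that start at 0. Hspa5, Hsp90b1, Sdf2l1, Pdia6, Canx and Xbp1 are lowest with the combination, P4hb is lower with both FK506 and the combination, Ern1 is high with the combination, and Syvn1 is high with FK506 and not with the combination.

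Among the folding enzymes, P4hb (chr11:120560298-120573253), the protein disulfide isomerase PDI, changed most. P4hb stood at 269, 297 and 237 FPKM with anti-CD3 alone, at 179, 235 and 237 with L. acidophilus, at 141, 121 and 145 with FK506 and at 102, 111 and 113 with the combination. The FK506 libraries were below all anti-CD3 and L. acidophilus libraries, and the combination libraries were lower still. P4hb had a log2 fold change of -1.51 ± 0.14 (SE, n = 3 per group, adjusted p = 1.74e-05). Pdia6, a disulfide isomerase that attenuates sensor signalling, had FPKM values of 201, 164 and 150.1 with anti-CD3 alone, 167, 118 and 122 with L. acidophilus, 204, 111 and 136 with FK506 and 89.6, 77.0 and 75.3 with the combination. The combination libraries were below all others, and replicate 1 was the highest library of every group. Pdia6 had a log2 fold change of -1.30 ± 0.22 (SE, n = 3 per group, adjusted p = 0.000609). Creld2, an ER stress-inducible protein with isomerase activity, had FPKM values of 44.5, 42.9 and 31.6 with anti-CD3 alone, 42.1, 28.8 and 28.7 with L. acidophilus, 54.6, 27.4 and 33.4 with FK506 and 24.1, 19.7 and 19.97 with the combination. Its pattern over the libraries was like that of Pdia6, with no overlap between the combination and the rest. Creld2 had a log2 fold change of -1.11 ± 0.25 (SE, n = 3 per group, adjusted p = 0.00417).

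Ppib, the ER cyclophilin B, fell (log2 fold change -0.59 ± 0.15, adjusted p = 0.00893), whereas Pdia3, the isomerase that works with calreticulin and calnexin (0.19 ± 0.14, adjusted p = 0.291), and Pdia4 (-0.04 ± 0.23, adjusted p = 0.908), another isomerase, were not called. For Pdia3 all 3 combination libraries exceeded the anti-CD3 libraries in FPKM, and without TMM factors it was called as a rise (0.40, adjusted p = 0.0284). The direction of the changes that were called held under every scaling tried.

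Of the 4 sensors and transcription factors, 1 fell, 2 rose and Atf6 was not called. Xbp1 (chr11:5520641-5525993), whose mRNA is the target of IRE1 alpha, fell. The FPKM of Xbp1 was 132, 150.1 and 90.1 in the anti-CD3 libraries, 97.1, 68.8 and 72.3 with L. acidophilus, 132, 93.0 and 86.2 with FK506 and 51.9, 46.3 and 49.6 with the combination. The combination libraries were below all others, and the L. acidophilus libraries overlapped the lowest anti-CD3 library. Xbp1 had a log2 fold change of -1.54 ± 0.22 (SE, n = 3 per group, adjusted p = 0.000188). These values count all Xbp1 transcripts and do not separate the spliced form. Ern1 (chr11:106397620-106487796), which encodes the kinase and endonuclease IRE1 alpha, rose. Ern1 stood at 4.26, 2.08 and 3.42 FPKM with anti-CD3 alone, at 5.10, 2.79 and 3.26 with L. acidophilus, at 4.21, 2.67 and 2.68 with FK506 and at 8.36, 7.80 and 7.83 with the combination. All combination libraries exceeded all other libraries, among which replicate 1 of each group stood high. Ern1 had a log2 fold change of 1.09 ± 0.28 (SE, n = 3 per group, adjusted p = 0.00769).

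Eif2ak3, the gene of the kinase PERK, had FPKM values of 6.58, 5.85 and 7.71 with anti-CD3 alone, 7.59, 6.62 and 6.76 with L. acidophilus, 9.38, 8.79 and 7.60 with FK506 and 9.28, 11.4 and 11.4 with the combination. The combination libraries lay above all anti-CD3 libraries but overlapped those of FK506. Eif2ak3 had a log2 fold change of 0.47 ± 0.11 (SE, n = 3 per group, adjusted p = 0.00601). Atf6, a sensor that is cleaved to a transcription factor, had FPKM values of 8.18, 6.95 and 8.46 with anti-CD3 alone, 7.72, 7.70 and 8.71 with L. acidophilus, 14.6, 10.3 and 10.3 with FK506 and 7.74, 10.6 and 10.6 with the combination. The FK506 libraries lay above all anti-CD3 and L. acidophilus libraries, and the combination libraries overlapped every group. Atf6 had a log2 fold change of 0.09 ± 0.15 (SE, n = 3 per group, adjusted p = 0.682).

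The degradation genes did not share in the falls. Derl3 (chr10:75893398-75895941) rose from a low level. The FPKM of Derl3 was 0.505, 0.436 and 0.647 in the anti-CD3 libraries, 1.13, 0.421 and 0.393 with L. acidophilus, 5.99, 2.57 and 2.78 with FK506 and 1.62, 2.13 and 2.47 with the combination. Every FK506 and combination library exceeded every anti-CD3 and L. acidophilus library, and replicate 1 of FK506 was far above the rest. Derl3 had a log2 fold change of 1.75 ± 0.44 (SE, n = 3 per group, adjusted p = 0.00697). Edem1, a lectin that directs misfolded glycoproteins to degradation, had FPKM values of 19.0, 25.8 and 27.3 with anti-CD3 alone, 27.5, 27.5 and 29.3 with L. acidophilus, 47.4, 41.8 and 39.99 with FK506 and 35.1, 47.2 and 46.8 with the combination. FK506 and the combination overlapped each other and exceeded the other groups. Edem1 had a log2 fold change of 0.58 ± 0.13 (SE, n = 3 per group, adjusted p = 0.00285). Herpud1, a scaffold of the ubiquitin ligase complex, had FPKM values of 29.2, 32.2 and 25.8 with anti-CD3 alone, 22.4, 23.7 and 21.9 with L. acidophilus, 34.8, 26.4 and 25.0 with FK506 and 29.5, 29.7 and 27.8 with the combination. The L. acidophilus libraries were below all others. Herpud1 had a log2 fold change of -0.21 ± 0.14 (SE, n = 3 per group, adjusted p = 0.223). Sel1l, the partner of the ligase Syvn1, Derl1 and Derl2 had log2 fold changes of 0.00, -0.02 and 0.06 and were not called.

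All 5 translocon genes fell. Ssr2 (chr3:88579608-88588420), a subunit of the translocon-associated protein complex, had FPKM values of 108, 300.1 and 128 with anti-CD3 alone, 123, 127 and 119 with L. acidophilus, 113, 85.8 and 111 with FK506 and 66.9, 54.4 and 60.0 with the combination. Replicate 2 of anti-CD3 was far above every other library. Ssr2 had a log2 fold change of -1.78 ± 0.32 (SE, n = 3 per group, adjusted p = 0.000869). Without that library the log2 fold change was -1.14 (adjusted p = 0.000141). Sec61b, a subunit of the Sec61 channel, had FPKM values of 139, 179 and 128 with anti-CD3 alone, 132, 123 and 119 with L. acidophilus, 125, 94.7 and 104 with FK506 and 105, 79.0 and 76.0 with the combination. The combination libraries were below the anti-CD3 libraries and overlapped those of FK506. Sec61b had a log2 fold change of -0.98 ± 0.18 (SE, n = 3 per group, adjusted p = 0.000864). Ssr3 had FPKM values of 105, 108 and 116 with anti-CD3 alone, 102, 116 and 117 with L. acidophilus, 89.0, 76.1 and 88.6 with FK506 and 62.5, 79.9 and 82.5 with the combination. FK506 and the combination overlapped, and both lay below the other groups. Ssr3 had a log2 fold change of -0.76 ± 0.11 (SE, n = 3 per group, adjusted p = 0.000231). Ssr1 (-0.70 ± 0.11, adjusted p = 0.000333) and the channel subunit Sec61a1 (-0.36 ± 0.10, adjusted p = 0.0132) had smaller falls.

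Of the 23 calls, 22 held whichever library was left out, the exception being Hsp90b1. Without TMM factors, 15 falls and 6 rises were called, with Hsp90b1, Sec61a1 and Dnajb11 no longer passing, and the median of all genes moved from 0.02 to 0.23. Over all genes this shifted the calls from 5076 rises and 5133 falls to 6380 rises and 3756 falls.

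FK506 alone changed fewer members. Against anti-CD3 alone, 5 rose and 3 fell, against 10.2% and 8.81% of all genes (19.0% in either direction), and the median log2 fold change was -0.14, against 0.00 for all genes. The rises were Derl3 (2.72 ± 0.45, adjusted p = 0.00183), Dnajb9 (0.76 ± 0.17, adjusted p = 0.0107), Edem1 (0.70 ± 0.13, adjusted p = 0.00301), Syvn1 (0.67 ± 0.11, adjusted p = 0.00213) and Atf6 (0.46 ± 0.15, adjusted p = 0.0491). The falls were P4hb (-1.10 ± 0.14, adjusted p = 0.000527), Sec61b (-0.59 ± 0.18, adjusted p = 0.0366) and Ssr3 (-0.49 ± 0.11, adjusted p = 0.0105). Only Derl3 and P4hb changed at least 2-fold, against 6.44% of all genes upward and 4.12% downward (10.6% in either direction). In FPKM, 7 members lay higher in every FK506 library than in every anti-CD3 library and 3 lay lower, against 20.1% and 12.0% of all genes. Chaperones that fell with the combination were not called here, with Hspa5 at -0.20 ± 0.12, adjusted p = 0.259, Hsp90b1 at 0.20 ± 0.21, adjusted p = 0.559 and Calr at 0.07 ± 0.14, adjusted p = 0.775.

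Replicate 1 stood high in these genes in 3 of the 4 groups. On the TMM scale it was the highest library of FK506 in 27 of 32 members (84.4%), against 39.2% of all genes, and replicate 2 was the highest in none. Replicate 1 was also the highest L. acidophilus library in 21 members (65.6%, against 44.9% of all genes) and the highest combination library in 20 (62.5%, against 46.9%), and with anti-CD3 alone in 12 (37.5%, against 40.2%). Without replicate 1 of FK506, 4 rises and 3 falls were called, with Atf6 lost (13.2% of all genes called), and Derl3 was at 2.22 (adjusted p = 0.00686). Of the 8 calls, 5 held without any 1 library, and Atf6, Sec61b and Ssr3 did not. Without replicate 2 of every group, 1 fall was called among the members, and the calls over all genes went from 4483 to 581.

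Markers of other cell types moved with FK506. The summed FPKM of 16 B cell markers ranged from 45.8 to 76.3 with anti-CD3 alone, from 30.6 to 44.3 under L. acidophilus, from 277 to 552 under FK506 and from 185 to 209 under the combination. For 16 plasma cell markers the sums were 474 to 714, 425 to 670, 2090 to 4259 and 1631 to 1820 in the same order, and the highest was in replicate 1 of FK506. Of these lists, 15 of 16 B cell and 10 of 16 plasma cell markers rose with FK506 (1 plasma cell marker fell), and 11 and 7 rose with the combination (3 plasma cell markers fell). The plasma cell marker that fell with FK506 was Sdc1, and Prdm1, Irf4, Tnfrsf17, Igha and Ighg2b were not called. Those that fell with the combination were Sdc1, Ighg1 and Irf4. The plasma cell sums rested largely on Igkc, Ighm and Irf4, with means of 159, 87.6 and 222 FPKM with anti-CD3 alone. With FK506 these means were 1188, 860 and 206 FPKM. With anti-CD3 alone and with L. acidophilus, the plasma cell marker Tnfrsf17 was at 0 in every library, whereas no B cell marker was at 0 throughout any group. The 15 myeloid markers summed to 2.55 to 4.28 with anti-CD3 alone, to 3.90 to 8.11 where L. acidophilus was given, to 6.63 to 20.9 under FK506 and to 50.4 to 78.5 under both, with 6 of the 15 (Csf1r, C1qa, C1qb, S100a8, S100a9 and Siglech) at 0 in all anti-CD3 libraries. Sums of 12 CD4 T cell markers were 2048 to 3197.5 over all libraries, and those of 2 CD8 T cell markers 2.21 to 9.02, while 8 erythroid and platelet markers summed to 0.388 to 0.714 with anti-CD3 alone and 3.65 to 5.76 with the combination, where 4 of the 5 tested rose. In the combination against FK506, 11 of 16 B cell and 5 of 16 plasma cell markers fell, and 6 of 13 tested myeloid markers rose and 1 fell. The study's methods describe purifying splenic CD4+ T cells with CD4-coated magnetic beads for another culture, a step meant to leave such cells out. The part of these cells in the members' values was not tested.

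**Figure D4:**
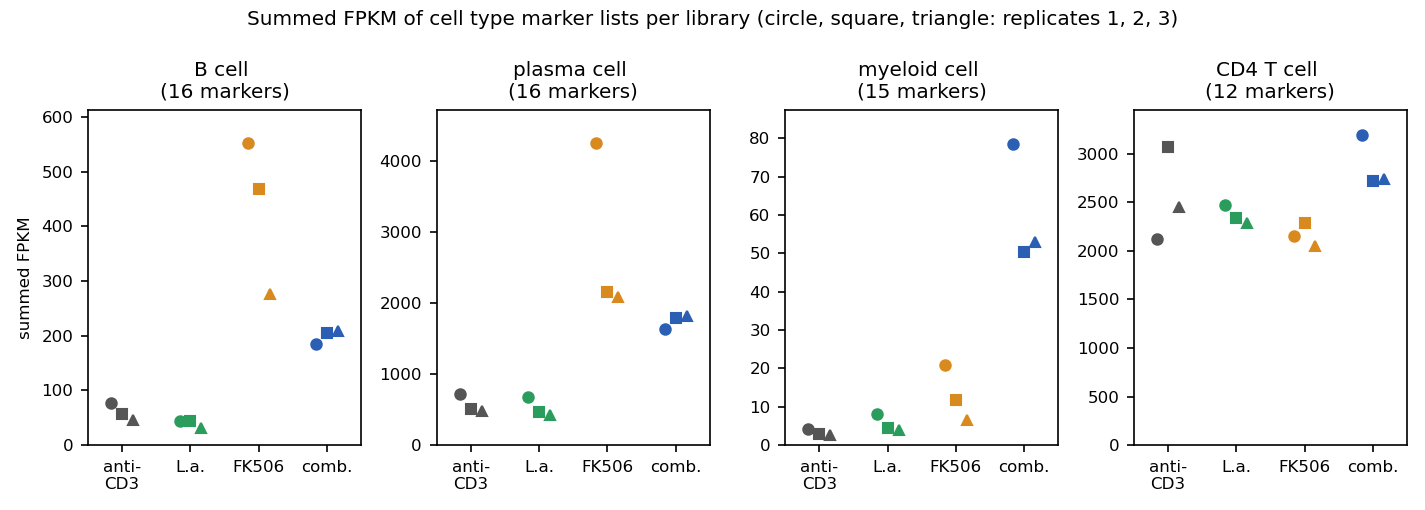
Summed FPKM of the B cell, plasma cell, myeloid and CD4 T cell marker lists in each library (circle, square and triangle for replicates 1, 2 and 3). B cell and plasma cell sums are highest in the FK506 libraries and next highest with the combination, the myeloid sum is highest with the combination, and replicate 1 of FK506 has the highest plasma cell sum, 4259.

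None of the 32 members was called by edgeR with L. acidophilus alone against anti-CD3, where 0.229% of all genes were called (0.178% higher and 0.0509% lower), and 5 members had an unadjusted p under 0.05 (15.6%, against 14.8% of all genes). At least 2-fold calls made up 0.187% of all genes there (0.157% higher and 0.0297% lower). DESeq2 called 2 of them, both as falls, Xbp1 (-0.74, adjusted p = 0.0287) and Herpud1 (-0.45, adjusted p = 0.0405), and limma on FPKM called none. DESeq2 called 4.71% of all genes in this comparison (2.34% lower). Without replicate 3 of anti-CD3, edgeR called Xbp1 (-0.95, adjusted p = 0.0391) and 1.67% of all genes. In edgeR the same genes were at -0.73 ± 0.22, adjusted p = 0.154 and -0.45 ± 0.14, adjusted p = 0.163. The largest change was that of Sdf2l1 (-0.93 ± 0.32, adjusted p = 0.21). In FPKM, Herpud1 and P4hb were lower in every L. acidophilus library than in every anti-CD3 library, and Canx, Edem1 and Syvn1 were higher, against 6.03% and 11.8% of all genes.

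The next comparisons asked what each agent added to the other, and they share the combination libraries. Against FK506 alone, the combination had 13 falls and 1 rise, against 10.9% and 8.18% of all genes (19.1% in either direction), with a median of -0.40. The falls covered 8 of the 10 chaperones, among them Sdf2l1 (-1.56 ± 0.32, adjusted p = 0.00664), Manf (-0.91 ± 0.20, adjusted p = 0.00926), Hsp90b1 (-0.82 ± 0.21, adjusted p = 0.0187) and Hspa5 (-0.62 ± 0.12, adjusted p = 0.00432). Xbp1 (-1.16 ± 0.22, adjusted p = 0.00414), Pdia6, Creld2, Ssr1 and Syvn1 (-0.66 ± 0.11, adjusted p = 0.00251) fell as well, and Ern1 rose (1.24 ± 0.28, adjusted p = 0.0102). Only Sdf2l1 and Xbp1 fell and Ern1 rose by at least 2-fold, against 3.60% and 3.84% of all genes (7.44% in either direction). P4hb, which was already lower with FK506, was at -0.41 ± 0.14, adjusted p = 0.0636. In FPKM 16 members lay lower in every combination library than in every FK506 library and 2 higher, against 17.6% and 23.4% of all genes. Without replicate 1 of FK506, 10 falls and 1 rise were called, with Hsp90b1, Dnajb11 and Creld2 lost (14.8% of all genes called), and without replicate 3 of every group only 1 fall was, while the calls over all genes went from 4508 to 405. Of the 14 calls, 9 held without any 1 library, and Creld2, Dnajb11, Ern1, Hsp90b1 and Ssr1 did not.

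Against L. acidophilus alone, the combination had 16 falls and 5 rises, against 17.0% and 16.6% of all genes (33.6% in either direction), also with a median of -0.40. The rises were those of the comparison with anti-CD3 alone, Derl3 (1.47 ± 0.43, adjusted p = 0.0209), Ern1 (0.98 ± 0.28, adjusted p = 0.0174), Dnajb9 (0.80 ± 0.17, adjusted p = 0.00402), Edem1 (0.52 ± 0.13, adjusted p = 0.00715) and Eif2ak3 (0.48 ± 0.11, adjusted p = 0.00718). The strongest falls were those of Sdf2l1 (-1.18 ± 0.32, adjusted p = 0.0144), Ssr2 (-1.15 ± 0.32, adjusted p = 0.0145), P4hb (-1.12 ± 0.14, adjusted p = 0.000175), Manf (-0.93 ± 0.20, adjusted p = 0.00405) and Canx (-0.91 ± 0.11, adjusted p = 0.000126). At least 2-fold falls were called in 3 members and a rise in 1, against 6.64% and 9.93% of all genes (16.6% in either direction). In FPKM, 16 members lay lower in every combination library than in every L. acidophilus library and 8 higher, against 21.1% and 29.1%. Of the 21 calls, 12 held without any 1 library. Creld2, Derl3, Dnajb11, Ern1, Hsp90b1, Sdf2l1, Sec61b, Ssr2 and Xbp1 did not, with 14 calls without replicate 2 and 15 without replicate 3 of the combination (26.6% and 27.0% of all genes called).

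Over the comparisons of the combination with anti-CD3 alone, of FK506 with anti-CD3 alone and of the combination with FK506, which share libraries, the members showed 9 patterns of calls. Lower with the combination against both, and not called with FK506, were 12 members, namely 8 chaperones (Hspa5, Hsp90b1, Hyou1, Calr, Canx, Dnajb11, Sdf2l1 and Manf), the folding enzymes Pdia6 and Creld2, Xbp1 and Ssr1 (37.5% of the members, against 7.09% of all genes). None of the 3 comparisons called 7 members (21.9%, against 52.3% of all genes). Higher with FK506 and with the combination were Dnajb9, Edem1 and Derl3 (6.28% of all genes), and lower with both were P4hb, Sec61b and Ssr3 (4.91%), none of them called between the combination and FK506. Ppib, Sec61a1 and Ssr2 were lower with the combination against anti-CD3 only (7.37%), and Eif2ak3 was higher there only (8.35%). Ern1 was higher with the combination against both (4.31%), and Atf6 was higher with FK506 against anti-CD3 only (0.708%). Syvn1 alone was higher with FK506, lower with the combination against FK506 and not called between the combination and anti-CD3 (0.585%).

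The last test asked whether the log2 change with the combination differed from that with FK506 plus that with L. acidophilus. Such a departure was called in 2 of the 32 members, both downward, against 3.00% of all genes downward, 1.35% upward and 4.35% in either direction, and 10 members had an unadjusted p under 0.05 (31.2%, against 19.6% of all genes). None of the calls reached 2-fold in edgeR, against 1.42% of all genes downward, 0.954% upward and 2.37% in either direction. The estimates of Derl3 (-1.25 ± 0.61, adjusted p = 0.282) and Ern1 (1.13 ± 0.39, adjusted p = 0.134) exceeded 2-fold and were not called. Syvn1 (chr19:6046576-6053718), the ubiquitin ligase HRD1 of ER-associated degradation, had FPKM values of 21.8, 19.7 and 23.5 with anti-CD3 alone, 28.4, 29.2 and 25.2 with L. acidophilus, 44.8, 35.8 and 32.4 with FK506 and 23.3, 25.9 and 25.9 with the combination. FK506 libraries exceeded all others, and the combination libraries lay between those of anti-CD3 and L. acidophilus, overlapping both. Its departure was -0.92 ± 0.16, adjusted p = 0.0121, with FK506 at 0.67 ± 0.11, adjusted p = 0.00213 and L. acidophilus at 0.26 ± 0.11, adjusted p = 0.308 against anti-CD3, and the combination at 0.01 ± 0.11, adjusted p = 0.946. Canx (chr11:50293957-50325673), the membrane-bound lectin chaperone, had FPKM values of 130.1, 118 and 130.1 with anti-CD3 alone, 136, 132 and 139 with L. acidophilus, 128, 100.3 and 127 with FK506 and 72.7, 81.3 and 82.1 with the combination. The combination libraries were below all others, and the L. acidophilus libraries were the highest. The departure was -0.71 ± 0.15, adjusted p = 0.0272, and it lost its call when replicate 1 or 3 of FK506, or any library of L. acidophilus or of the combination, was left out (adjusted p = 0.0515 to 0.0757). That of Syvn1 held in every such fit. Without replicate 1 of every group, where 2.15% of all genes were called, neither Syvn1 (-0.75, adjusted p = 0.0636) nor Canx (-0.67, adjusted p = 0.122) was. With the replicate number as a block, edgeR called 5 members, adding Calr and Hsp90b1 downward and Ern1 upward, where 6.69% of all genes were called.

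Both members that departed were among the 9 with an ER stress element in their windows. Of those 9, 6 fell with the combination against anti-CD3 (Hspa5, Hsp90b1, Calr, Canx, Pdia6 and Creld2), 1 rose (Derl3) and Syvn1 and Dnajc3 were not called. Of the 17 members with a window and no match, 8 fell, 4 rose and 5 were not called, and of the 6 without a window, 4 fell, where 21.8% of all genes fell and 21.5% rose. Of 28 genes with the element that are no members, 16 were tested, of which 1 fell, 4 rose and 11 were not called, with a median log2 fold change of 0.34. Hspa5 and Derl3, with the element at 65 and 156 bases before the start, were at -0.83 ± 0.12, adjusted p = 0.000197 and 1.75 ± 0.44, adjusted p = 0.00697. No test was run between these sets.

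Other genes of the secretory pathway, from lists beside the 32 members, were set against them. Of 125 genes, 65 fell and 12 rose with the combination against anti-CD3, with a median of -0.37, where 21.8% of all genes fell and 21.5% rose. In the PERK, ATF4 and CHOP arm 9 of 12 fell, with Chac1 (-4.12 ± 0.40), a glutathione-degrading enzyme, and Trib3 (-3.17 ± 0.39), a pseudokinase, the largest. Of 10 sensor processing and related genes 3 rose, among them Creb3l2 (0.84 ± 0.24), an ER-anchored transcription factor, and the stress kinase Map3k5 (0.62 ± 0.14), and 2 fell, Eif2s1 (-0.99 ± 0.10), the translation initiation factor that PERK phosphorylates, and Atf6b (-0.45 ± 0.16). Of 23 other folding enzymes 8 fell and 3 rose, with Ero1l (-2.57 ± 0.35), the oxidase that recharges disulfide isomerases, and the prolyl isomerase Fkbp11 (-2.61 ± 0.49) falling most, and the related oxidase Ero1lb (1.00 ± 0.26) and the membrane-bound thioredoxin Tmx4 (0.95 ± 0.12) rising.

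Among 16 other degradation genes 6 fell and 3 rose, with Edem3 (0.76 ± 0.12), a mannosidase, up and the ubiquitin-conjugating enzyme Ube2j2 (-0.77 ± 0.19) and the selenoprotein Selenos (-0.60 ± 0.17) down. Of 19 other translocation genes 12 fell and 2 rose, with Sec61g (-1.51 ± 0.32), the small Sec61 subunit, and Ssr4 (-0.92 ± 0.32) the largest falls and Tram2 (1.51 ± 0.33) and Sec62 (0.30 ± 0.10) the rises. In N-glycosylation 13 of 18 fell, with Rpn1 (-1.33 ± 0.12), a subunit of the oligosaccharyltransferase, and Mogs (-1.03 ± 0.18), the first glucosidase to trim glycans, the largest. Of 27 ER to Golgi transport genes 15 fell and 1 rose, with Kdelr3 (-3.27 ± 0.35), which returns ER proteins from the Golgi, and the coat protein Cope (-1.25 ± 0.24) down and Sec24a (0.54 ± 0.15) up.

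Chaperones that work outside the ER also fell, 12 of 18, with 1 rise. The largest falls were those of the mitochondrial chaperones Hspa9 (-1.68 ± 0.12) and Hspd1 (-1.67 ± 0.14), and Bag3 (0.54 ± 0.16), a cochaperone of cytosolic Hsp70, rose. With FK506 alone 31 of the 125 secretory genes fell and 5 rose, with a median of -0.22, against 8.81% and 10.2% of all genes, and 8 of 12 in the PERK, ATF4 and CHOP arm fell. With L. acidophilus alone edgeR called 2 of the 125, both as falls in that arm, against 0.229% of all genes, while 27 had an unadjusted p under 0.05 (21.6%, against 14.8% of all genes).

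**Figure D5:**
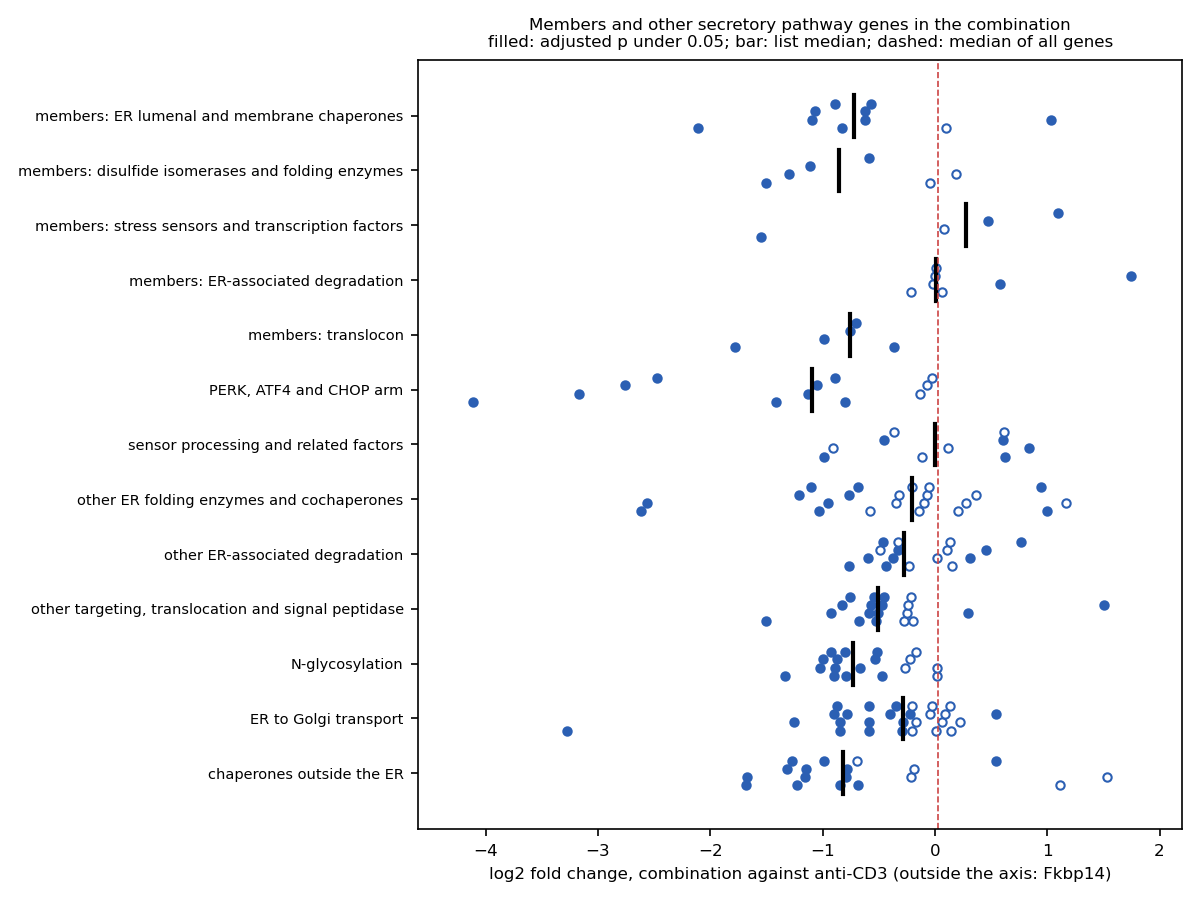
Log2 fold changes of the combination against anti-CD3 alone for the members by role and for the other lists (1 point per gene, filled where adjusted p was under 0.05, vertical bar at the list's median, dashed line at the median of all genes, 0.02). Medians lie below 0 in most lists and near 0 for the degradation members, and Fkbp14, listed at 0 FPKM in the anti-CD3 libraries, lies outside the axis.

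Some members share their place with another gene model in the RefSeq annotation, as Hspa5 does with Rabepk, Pdia3 with Catsper2, Ppib with Snx22, Syvn1 with Mrpl49 and Derl2 with Mis12. How the counting treated strand and overlaps is not given in the sources used here, so reads of such pairs could not be told apart.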

How the data were processed

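RNA was sequenced from 12 libraries of mouse CD4+ T cells, 3 in each of 4 groups taken from the sample labels. Per the submitters' processing notes, reads were handled with bcl2fastq 2.20.0, Trimmomatic, HISAT2 2.1.0 and StringTie 2.1.3b on mm10 (GRCm38). The authors deposited raw counts per gene as whole numbers, which can be rounded estimates from that tool. The authors also deposited FPKM, and its totals differed between libraries, so the quantile normalization named in the methods is not visible in it. The deposited TPM columns were not used.

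Counts were tested with edgeR 4.0.16 in R 4.3.3 (TMM factors, count above 0 in at least 3 libraries, 1 mean per group over all 12 libraries, quasi-likelihood test, Benjamini-Hochberg over 23585 genes). The SE was obtained as the size of the log2 fold change over the root of its F value. The alternatives were other scaling factors and filters, DESeq2 1.42.0, limma 3.58.1 on log2(FPKM + 1) and log2(FPKM + 0.1), only the groups compared, a replicate block, other thresholds and libraries left out. Scripts were tested on simulated counts. Figures used matplotlib 3.10.9 in Python 3.11.15. Depth was 45416397 to 64658165 counts per library, and no replicate pair agreed within sampling noise. Per degree of freedom, chi-square was 4.61 between replicates 2 and 3 of the combination, 9.57 between those of L. acidophilus and 47.7 to 205 for the other pairs, so replicate 1 stood apart in both groups.

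The members and lists were chosen with earlier results of these data known. Values of every library are printed for the 3 members of each role with the largest change in the combination against anti-CD3, all sensors and each member called with L. acidophilus or in the departure, and Hspa5, Hsp90b1 and Dnajb9 were added after their values were seen. In other lists the 2 largest rises and falls among called genes with a mean FPKM of at least 1 are named. One gene that this rule names is not reported here. Of the symbols listed, 3 (Ero1a, Ero1b and Hm13) were matched by older names. Promoter windows and gene positions are from RefSeq GRCm38.p6, and protein sequences were not used here.

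Same-numbered libraries deviated together, with a correlation over 0.1 in each pair, for L. acidophilus against anti-CD3 (0.471, 0.313 and 0.195 over 13533 genes). The same held for the combination against L. acidophilus (0.201, 0.195 and 0.107). In the other comparisons not every pair was over 0.1, but the mean correlation of same-numbered libraries was above 0. It was 0.185 for the combination against FK506, 0.103 for FK506 against anti-CD3 and 0.0946 for the combination against anti-CD3. Replicate 1 also had the highest total count of every group, at 63113961 to 64658165, against 45416397 to 54245588 for replicates 2 and 3. No label says what a shared replicate number stands for, and the source of this shared depth was not tested. The main fit had no replicate block. Adding it changed no member's call for L. acidophilus against anti-CD3 or for the combination against L. acidophilus. Over all genes, 54 calls became 101 and 7930 became 8420 in these comparisons.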

Additional observations from a re-analysis of the deposited data

Results flagged for a closer look

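The log2 change with the combination departed from that with FK506 plus that with L. acidophilus, by a test of the interaction, for the members Syvn1 (-0.92 ± 0.16, adjusted p = 0.0121) and Canx (-0.71 ± 0.15, adjusted p = 0.0272). These were 2 of the 32 members, against 4.35% of all genes. The call of Canx was lost without replicate 1 or 3 of FK506 and without any library of L. acidophilus or of the combination. That of Syvn1 held without any 1 library. Without replicate 1 of every group neither was called, where 2.15% of all genes were. Among the other genes named, the same test in edgeR called the translation initiation factor Eif2s1 (-0.70 ± 0.14, adjusted p = 0.0193) and the mitochondrial chaperones Hspa9 (-0.75 ± 0.16, adjusted p = 0.0250) and Hspd1 (-1.32 ± 0.19, adjusted p = 0.00623). Those genes were named for large changes in the combination against anti-CD3. That change is the sum of the single changes and the departure, so the choice is not independent of the departure. Over all genes, 3.00% departed downward and 1.35% upward. In FPKM the combination libraries of Eif2s1 lay at 29.5 to 30.9, below all libraries of the other groups, the lowest of which was replicate 2 of FK506 at 42.3.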

How the results depend on the processing

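No member's called change reversed under any alternative. Across the comparisons 68 calls were made, of which other size factors lost 2, no scaling factors 7 (with 3 gained), limma on log2(FPKM + 1) 8 (with 3 gained), and the filters on low counts none. The lowest count of any member was 28.

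Members called moved as follows. In the combination against anti-CD3, 23 calls became 11 with the 2-fold threshold (43.3% and 24.6% of all genes called). Leaving out libraries gave 15 to 23, with 27.1% to 43.8% of all genes called. In FK506 against anti-CD3, 8 calls became 5 with only the groups compared (14.1% of all genes called), 4 at an adjusted p under 0.01 and 2 with the 2-fold threshold. Without libraries 1 to 9 were called, with 2.58% to 20.3% of all genes called. With L. acidophilus, 0 calls became 2 with DESeq2, and leaving out libraries gave 0 to 1, with at most 1.67% of all genes called. In the combination against FK506, 14 calls became 9 at an adjusted p under 0.01 and 3 with the 2-fold threshold, and 1 to 15 without libraries (1.81% to 18.6% of all genes called). In the combination against L. acidophilus, 21 calls became 12 and 4 at these thresholds. Without replicate 2 of every group 10 were called (19.6% of all genes), and 7 to 21 over all fits without libraries (16.7% to 34.1% of all genes). For the departure from the sum, 2 calls became 5 with DESeq2, which called 10.1% of all genes against 4.35% in edgeR. They became 5 with the replicate block, which added Calr, Hsp90b1 and Ern1, and 0 at either stricter threshold. Without libraries 0 to 5 were called, with at most 6.25% of all genes called. The replicate block lost Atf6 and gained Dnajc3 in FK506 against anti-CD3 and changed no other call. In that comparison and those of the combination with anti-CD3 and with FK506, the lowest correlation of same-numbered libraries was -0.110, -0.0702 and 0.0529. Fits without replicate 1, 2 or 3 of every group rest on 2 libraries per group and called 474, 1 and 0 genes of all for the departure (1025 with all libraries), so the latter 2 say nothing about the members there. At an adjusted p under 0.01, edgeR called 8.54%, 8.41%, 20.8% and 0.632% of all genes in FK506 against anti-CD3, the combination against FK506 and against L. acidophilus, and the departure. The cause of these shifts was not tested.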
